A study of Mus musculus with 24 samples.

Results

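The stroma-rich (SR) line BURP-16SR was compared, over all genes, with the 6 basal/squamous (Ba/Sq) lines raised in the same mouse model of bladder cancer. The 3 tumors labelled as this line, of 24 tumors in all, were set against the 18 Ba/Sq tumors, 3 each of BURP-12BaSq, BURP-17BaSq, BURP-18BaSq, BURP-21BaSq, BURP-24BaSq and BURP-25BaSq. Genes were then divided by how evenly the 3 BURP-16SR tumors expressed them, to keep genes with the same level in every tumor apart from genes, many of them markers of stromal or immune cells, whose level differed from tumor to tumor. The 3 tumors of the neuroendocrine-like line BURP-19NE served as a second reference.

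All lines were started from bladder tumors of C57BL/6NTac mice that had drunk 0.1% of the carcinogen BBN from 8 weeks of age for up to 36 weeks. The tumors were passed under the skin of immune-competent hosts of the same strain and sex. Tumor cells and host cells thus have the same genetic background. The donors of BURP-16SR, BURP-19NE, BURP-18BaSq, BURP-17BaSq and BURP-12BaSq were male, and those of the other Ba/Sq lines female. BURP-16SR was the only SR line and came from 1 donor, so that what belongs to the line and what belongs to the subtype cannot be told apart. In the study's subtype calls not every tumor of this line was stroma-rich, and the line is also described there as neuroendocrine-like. The text of the study does not say which tumor differed, so that all tumors of the line were kept together as labelled. The sample names of BURP-16SR replicates 1 and 2 are of another form than that of replicate 3, which ends in a passage number. In whole tumors, fewer cells of a type and less RNA per cell cannot be told apart.

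Carcinomas of the bladder lining can lower the adhesion molecules, keratins and transcription factors of epithelium and take on the vimentin-rich cytoskeleton of mesenchymal cells. Repressors of the ZEB, SNAI and TWIST families can drive such a change, in part by binding E-box sequences in the promoters of epithelial genes. Fibroblasts, vessel cells and white blood cells express many of the same mesenchymal genes, so that the RNA of a whole tumor mixes both sources.

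Total counts were 14039042 to 14144272 in the BURP-16SR tumors and 9295708 to 25370320 in the Ba/Sq tumors. Levels are given as CPM, the count scaled to the total of its library after TMM normalization over the 24 tumors, and a floor of 3 counts, which covers counting error only, corresponded to 0.210 to 0.254 CPM in BURP-16SR and to 0.106 to 1.18 CPM in Ba/Sq. A pair of Ba/Sq tumors stood apart. In BURP-25BaSq replicate 2, ribosomal RNA genes with Gm26917 took 68.0% of the counts, against at most 18.98% in any other tumor. The library labelled BURP-25BaSq replicate 3 had a Pearson's r across genes of 0.987 to 0.992 with the BURP-21BaSq tumors and of 0.956 to 0.962 with the other BURP-25BaSq tumors. Between BURP-16SR replicates r was 0.955 (1 and 2), 0.918 (1 and 3) and 0.895 (2 and 3). Genes are not independent replicates.

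Of 21028 genes tested, 2216 were higher and 1813 lower in BURP-16SR (10.5% and 8.62% of all genes, 19.2% in either direction). These shares are the background for the counts of every gene list below. A gene was called where edgeR's quasi-likelihood test gave an adjusted p below 0.05 and the groups differed by more than 2-fold. All 3 tumors lay above the 18 Ba/Sq tumors in 1086 of the higher genes and below them in 903 of the lower genes. Regardless of the test, all 3 lay above in 5.89% of genes and below in 5.34%, which left 11.2% without overlap. A single tumor was above the Ba/Sq range in 437 of the higher genes, of which replicate 1 accounted for 89, replicate 2 for 215 and replicate 3 for 133. With both BURP-25BaSq tumors that stood apart left out, 1900 genes were higher and 1994 lower. The 18 Ba/Sq tumors came from 6 lines, and a fit with the line as a random effect (limma-voom) called 1230 higher and 267 lower genes, among them 1159 of the 2216 and 267 of the 1813. The labels do not say that the tumors of a line were separate experiments, so that p-values measure the spread between these samples.

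Genes of epithelial adhesion and identity were lower in BURP-16SR. Of 25 genes of adhesion and junctions 22 were lower and none higher, with a median log2 fold change of -5.62 against -0.03 over all genes tested. Of 14 genes that regulate epithelial cells 12 were lower (median -6.06), and of 22 basal and squamous genes 20 were lower and 1 higher (median -10.29). With genes at or under the floor set to their bound, the medians were -5.60, -5.75 and -9.19. All 3 tumors were below the 18 Ba/Sq tumors in 17 of the 25, 12 of the 14 and 17 of the 22. The basal and squamous genes summed to 1398, 1125 and 1746 CPM in replicates 1, 2 and 3, and to at least 13942 CPM in every Ba/Sq tumor. Fewer were lower with the line as a random effect (limma-voom), at 8 of the 25, 7 of the 14 and 10 of the 22, and with counts summed per line, at 11, 9 and 16 (edgeR).

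Cdh1, which encodes the adherens junction protein E-cadherin, was at 5.34, 6.57 and 4.05 CPM in replicates 1, 2 and 3. In the 18 Ba/Sq tumors its lowest, median and highest levels were 203, 463 and 846 CPM, with no overlap between the groups, and the log2 fold change was -6.44 ± 0.54 (SE, adjusted p = 9.73e-09). Dsp, which encodes the desmosomal plaque protein desmoplakin, was at 1.02, 0.0773 and 0.0699 CPM against 1017, 3109 and 6022 CPM (lowest, median and highest). Replicates 2 and 3 were under the floor for Dsp, and the log2 fold change was -13.00 ± 1.0 (SE, adjusted p = 3.05e-09). Jup, which encodes plakoglobin, a protein of both junction types, was at 13.5, 12.3 and 10.8 CPM against 308 to 1032 in Ba/Sq, a log2 fold change of -5.71 ± 0.52 (SE, adjusted p = 3.5e-08). Ppl, the gene of the desmosome-linked protein periplakin, was at 22.9, 11.1 and 26.4 CPM against 94.7 to 1671. For all 4 genes every BURP-16SR tumor was below every Ba/Sq tumor.

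Epcam, which encodes an epithelial adhesion molecule, was at 0.593, 0.232 and 0.279 CPM against 21.4, 93.7 and 191 CPM. The tight junction genes Cldn1, Cldn3, Cldn4 and Cldn7 were lower too. The members that did not pass the test were Ctnnb1, Ctnna1 and Ctnnd1, whose products, the catenins, link cadherins to actin. Ctnnb1 was at 498, 476 and 738 CPM against 239 to 781, and Ctnnd1 at 300.0, 297 and 384 CPM against 269 to 825. For both genes all 3 tumors were inside the Ba/Sq range. Ctnna1 was at 199.7, 209 and 266 CPM against 207 to 421, with replicate 1 just below the range.

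The promoters of 4 lower junction genes that hold at least 2 E-boxes each are shown. E-boxes in promoters of this kind are the known binding sequence of ZEB and SNAI repressors. Windows reach from 250 bases before to 50 after the start of the gene, come from RefSeq on GRCm38.p6 and are written 5′ to 3′ on the gene's strand. Capitals mark the E-box CAGGTG and its reverse complement CACCTG, which do not overlap each other here. Crb3, which encodes a protein of cell polarity and has a second promoter in the table, is at chr17:57061951-57062250 (plus strand). Ap1m2, the gene of an epithelial subunit of the clathrin adaptor AP-1, is at chr9:21312284-21312583 (minus strand). Rab25, the gene of an epithelial GTPase of recycling endosomes, is at chr3:88548230-88548529 (minus strand), and Epcam at chr17:87635729-87636028 (plus strand).
Crb3: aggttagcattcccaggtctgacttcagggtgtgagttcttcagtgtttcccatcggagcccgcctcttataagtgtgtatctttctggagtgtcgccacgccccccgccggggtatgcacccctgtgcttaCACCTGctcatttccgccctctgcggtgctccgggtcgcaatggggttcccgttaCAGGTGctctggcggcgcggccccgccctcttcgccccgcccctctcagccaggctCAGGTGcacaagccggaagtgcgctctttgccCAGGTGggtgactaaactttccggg
Ap1m2: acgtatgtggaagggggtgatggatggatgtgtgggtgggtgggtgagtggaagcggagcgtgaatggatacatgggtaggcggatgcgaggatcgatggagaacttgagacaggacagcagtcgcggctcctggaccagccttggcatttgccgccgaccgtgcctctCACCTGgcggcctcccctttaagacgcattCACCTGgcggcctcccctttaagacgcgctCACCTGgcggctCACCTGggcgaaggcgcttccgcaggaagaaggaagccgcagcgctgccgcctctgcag
Rab25: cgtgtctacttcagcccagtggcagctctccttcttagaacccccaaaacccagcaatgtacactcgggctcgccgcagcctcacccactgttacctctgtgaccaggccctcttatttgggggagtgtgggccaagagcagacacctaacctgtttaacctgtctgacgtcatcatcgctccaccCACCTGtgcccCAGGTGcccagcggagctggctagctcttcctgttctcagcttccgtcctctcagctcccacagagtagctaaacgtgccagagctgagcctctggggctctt
Epcam: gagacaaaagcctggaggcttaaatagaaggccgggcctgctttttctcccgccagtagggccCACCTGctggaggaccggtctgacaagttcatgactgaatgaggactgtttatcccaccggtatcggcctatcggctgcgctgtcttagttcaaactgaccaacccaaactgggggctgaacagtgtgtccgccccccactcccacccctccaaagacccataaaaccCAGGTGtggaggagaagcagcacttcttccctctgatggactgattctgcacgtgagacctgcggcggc

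Crb3 and Ap1m2 held 4 of these E-boxes each, and Rab25 and Epcam 2 each. Among lower junction genes not shown, Jup and Cldn1 held 0, and Dsp, Cldn3, Tjp3, Marveld2 and F11r 1 each. Cldn4, Cldn7 and Ocln held 2 each. Where a gene had several promoters, the one with the most E-boxes was counted in the shares of genes. Of the 25 junction genes 16 had a promoter in the table, and 12 of these (75%) held at least 1 E-box, against 22.6% of all genes of the table (6098 of 27025 genes, 20.2% of all windows). At least 2 E-boxes stood in 7 of the 16 junction genes (43.8%) and in 3.32% of all genes. The share was lower in the other epithelial lists, with an E-box in 2 of 7 epithelial regulators (28.6%) and in 4 of 9 basal and squamous genes (44.4%) that had a promoter in the table. Among protein-coding genes an E-box stood in 31.8% of those lower in BURP-16SR, in 22.8% of those higher and in 21.6% of those tested. Of these protein-coding genes 11.2% were higher and 9.16% lower. A match of letters describes the window and shows no binding. Cdh1, Marveld3, Pkp3, Ppl, Evpl, Ctnna1, Prss8 and St14 are among the junction genes with no entry in the table.

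Crb3 was at 0.339, 0.155 and 0 CPM against 1.95 to 19.3 in Ba/Sq, and Rab25 at 0.169, 0.232 and 0.349 CPM against 3.02 to 116. The groups did not overlap for either gene. Ap1m2 was at 0.339, 0.232 and 0 CPM, and its Ba/Sq range of 0 to 76.0 reached down to the same level. With the line as a random effect Crb3, Rab25 and Ap1m2 lost their calls, with an adjusted p of 0.17, 0.161 and 0.595, and Epcam kept its call at 0.0334 (limma-voom).

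The 12 lower regulators were below the Ba/Sq range in all 3 tumors. Ehf, an ETS transcription factor gene of epithelia, was at 0.254, 0.232 and 0 CPM against 40.9, 452 and 846, at least 1894-fold lower, and its adjusted p was 0.0786 with the line as a random effect (limma-voom). Esrp1, which encodes an epithelial splicing factor, was at 0.0847, 0 and 0 CPM against 60.5, 168 and 304, at least 747-fold lower. Grhl2, a grainyhead transcription factor gene of epithelial barriers, was at 0, 0 and 0.210 CPM against 31.8 to 143, at least 416-fold lower. At these levels the 3 genes were at or under the floor in every BURP-16SR tumor. Here and below, a fold given as at least compares the mean of the higher group with the mean floor of the other. Such a bound need not hold for each tumor. Grhl1, Ovol1, Ovol2, Elf3 and Esrp2 were lower too. Klf5 was lower by less, at 102.4, 77.2 and 204 CPM against 206 to 596, a log2 fold change of -1.55 ± 0.29 (SE, adjusted p = 0.000505). Klf4 and Tfap2a did not pass, at log2 fold changes of -0.65 and -0.60.

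**Figure D1:**
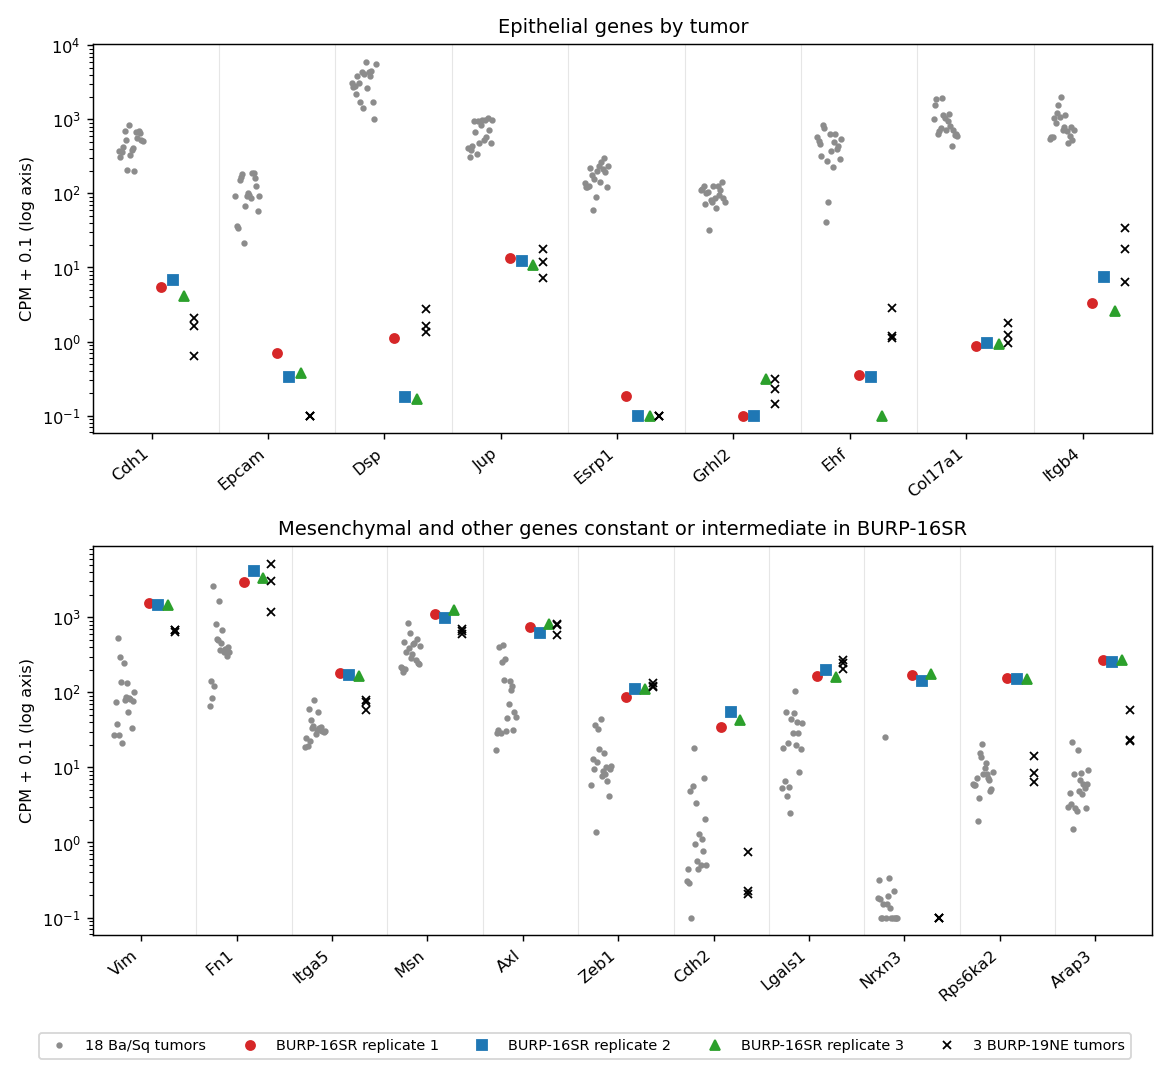
Levels of epithelial genes (top) and of genes constant or intermediate in BURP-16SR (bottom) in CPM plus 0.1 on a log axis, each symbol 1 tumor. For every gene shown, all 3 BURP-16SR tumors lie outside the range of the 18 Ba/Sq tumors, below it in the top panel and above it in the bottom panel.

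Basal keratin genes were among the largest decreases. Krt5 was at 0.339, 0 and 0 CPM against 2947, 3928 and 6048 in Ba/Sq, and its log2 fold change was -15.11 ± 0.77 (SE, adjusted p = 3.23e-12). Krt14, the partner of Krt5 in basal cells, was at 0.254, 0 and 0 CPM against 2457, 3359.9 and 5739.5, at least 16097-fold lower. Krt6a was at 0.508, 0 and 0.0699 CPM against 1557, 3208 and 9444. Krt17 had no count in any BURP-16SR tumor against 127, 615 and 1449 CPM, at least 2798-fold lower, and was the member with the largest fitted change. Keratin genes are in part near copies, so that reads can be divided among them. The other genes of the 10 largest decreases included the desmosomal cadherin genes Dsg3 (at least 1647-fold lower, Ba/Sq range 36.6 to 801 CPM) and Dsc2 (at least 1165-fold, 27.6 to 828). The keratin gene Krt4 (at least 3719.7-fold, 17.7 to 2497) and the cornified envelope gene Sprr3 (at least 1003-fold, 2.14 to 834) were among them. So were the protease inhibitor gene Spink5 (at least 673-fold, 1.65 to 614) and the surface antigen gene Psca (at least 2532-fold, 26.6 to 2284). These bounds rest on Ba/Sq means and do not hold for each Ba/Sq tumor. Of these 10 genes 3, Krt14, Krt5 and Krt6a, kept their calls with the line as a random effect (limma-voom), where the adjusted p was 0.0676 for Krt17, 0.116 for Dsg3, 0.207 for Dsc2, 0.425 for Krt4, 0.465 for Psca, 0.5 for Spink5 and 0.651 for Sprr3.

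Trp63, the transcription factor gene that maintains basal cells, was at 0.169, 0.232 and 0 CPM against 178, 371 and 771, at least 1678-fold lower. Genes of the anchoring of basal cells to the basement membrane were low in all 3 tumors, with Col17a1 at 0.762, 0.850 and 0.838 CPM against 436 to 1934 and Itgb4 at 3.22, 7.42 and 2.45 CPM against 482 to 2018. The 1 higher gene of the basal and squamous list was Cd44, the gene of a hyaluronan receptor that mesenchymal and white blood cells also express. It was at 1068, 869.8 and 1498 CPM against 358 to 891, a log2 fold change of 1.15 ± 0.21 (SE, adjusted p = 0.000306). Without replicate 3 its log2 fold change of 0.84 was under the limit for a call.

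None of 4 simple keratin genes, which many epithelia use, passed the test (edgeR), at an unadjusted p of 0.05 or with DESeq2 either. Krt19 was at 425, 277 and 613 CPM against 3.18 to 1962, Krt18 at 238, 129 and 320.1 CPM against 3.03 to 509.7 and Krt8 at 128, 75.9 and 164 CPM against 0 to 159. All 3 tumors had RNA of these genes, and replicate 2 was the lowest for each. Krt7 was at 67.3, 36.3 and 35.1 CPM against 2.44 to 1427. Of 18 luminal urothelial genes 9 were lower and none higher, and all 9 were below the Ba/Sq range in all 3 tumors. Of the 18, 3 were lower with the line as a random effect. They held Psca, Klf5, Grhl3, Elf3, Upk1b and the receptor genes Erbb3 and Erbb2. Erbb3 was at 1.69, 1.86 and 0.559 CPM against 48.2 to 301. Erbb2 was constant at 16.5, 20.1 and 19.1 CPM against 48.0 to 156, a log2 fold change of -2.23 ± 0.36 (SE, adjusted p = 9.27e-05). Gata3 (46.2, 30.7 and 63.9 CPM) and Foxa1 (30.8, 18.2 and 36.4 CPM), transcription factor genes of luminal urothelium, did not pass, within Ba/Sq ranges of 12.8 to 148.2 and 13.4 to 101.9.

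Of 13 transcription factor genes tied to the change from epithelial to mesenchymal cells, 6 were higher and 2 lower, with a median log2 fold change of 1.18. Zeb1, a repressor of Cdh1, was at 86.3, 109 and 110.4 CPM against 1.26, 9.73 and 44.5, above the whole Ba/Sq range and constant among the BURP-16SR tumors. Its log2 fold change was 2.93 ± 0.52 (SE, adjusted p = 0.000265). Snai1 was at 9.06, 14.9 and 3.42 CPM against 0.311 to 4.91, so that replicates 1 and 2 lay above the range and replicate 3 within it. Snai2, which basal epithelium also expresses, was lower, at 3.73, 5.80 and 5.17 CPM against 10.6, 45.3 and 99.6, a log2 fold change of -3.21 ± 0.48 (SE, adjusted p = 3.82e-05). Foxc1 was the other lower member, at -2.27, and Sox9 did not pass, at -0.03. With the line as a random effect 2 were higher and 1 lower, and Zeb2, Twist1, Prrx1 and Foxc1 lost their calls with an adjusted p of 0.305, 0.0896, 0.299 and 0.276 (limma-voom), while Zeb1 (0.012) and Snai2 (0.0152) kept theirs. With counts summed per line none was higher and 1 lower (edgeR), and without replicate 1 or replicate 2 there were 3 higher and 1 lower.

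Zeb2, Twist1, Prrx1 and Tcf4 were higher by 1.29, 1.40, 2.21 and 1.18 on the log2 scale. Tcf4, the most abundant member by CPM, was at 147, 192 and 320.1 CPM against 61.7 to 154. Twist1 was at 35.5, 30.6 and 34.9 CPM against 1.97 to 40.8, and Prrx1 at 49.0, 136 and 24.5 CPM against 1.51 to 92.5. Zeb2 and Twist1 lost their calls without any 1 of the 3 tumors, with an adjusted p of up to 0.178 and 0.133. Prrx1 lost its call without replicate 1 (0.0693) or replicate 2 (0.377) and kept it without replicate 3 (0.0446, edgeR). With both BURP-25BaSq tumors that stood apart left out, 3 of the 13 were higher and 2 lower.

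The spread among the 3 BURP-16SR tumors was taken as the ratio of the highest to the lowest, after adding a prior count to each. A gene with a mean of at least 5 CPM was termed constant up to a ratio of 1.5, variable from a ratio of 3 and intermediate between them. Of 11884 such genes 6027 were constant (50.7%), 4445 intermediate and 1412 variable (11.9%). Replicate 2 was the highest tumor in 805 of the variable genes and replicate 3 the lowest in 1073. Of 1567 such genes higher in BURP-16SR, 443 were constant, 732 intermediate and 392 variable. All 3 tumors lay above the Ba/Sq range in 76.5% of the constant, 56.1% of the intermediate and 17.9% of the variable ones. With the line as a random effect 319 of the 443, 491 of the 732 and 101 of the 392 were also called. The same 3 values set the class, the overlap and the test. The difference between the classes is therefore in part built in and supports nothing more. In the 392 variable genes the highest tumor was replicate 1 in 113, replicate 2 in 161 and replicate 3 in 118. A constant level describes the RNA of the whole tumor, and which cells made it was not measured.

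Many mesenchymal cytoskeleton and adhesion genes were higher. Of 19 tested 11 were higher and 1 lower, with a median log2 fold change of 2.04, and 6 of the 11 were constant, 3 intermediate and 2 variable. Of all 19, 6 were constant, 8 intermediate and 5 variable, with a median ratio of 1.81. Over all genes of at least 5 CPM the median ratio was 1.49, with 50.7% constant and 11.9% variable. Fn1, the gene of the matrix protein fibronectin, was at 2980.2, 4145 and 3353 CPM against 65.3, 371 and 2585, a log2 fold change of 2.69 ± 0.62 (SE, adjusted p = 0.00319). Vim, which encodes the intermediate filament protein vimentin, was at 1568, 1460.3 and 1442 CPM against 21.003, 79.6 and 531, a log2 fold change of 3.72 ± 0.58 (SE, adjusted p = 6.22e-05). Itga5, the gene of the alpha chain of the fibronectin receptor, was at 179.7, 169 and 164.5 CPM against 18.4 to 79.8, a log2 fold change of 2.33 ± 0.28 (SE, adjusted p = 2.12e-06). In each of these genes all 3 tumors lay above all 18 Ba/Sq tumors.

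Msn, Axl and Lgals1, the genes of the membrane-actin linker moesin, a receptor tyrosine kinase and galectin-1, were also constant and above the Ba/Sq range. Msn was at 1092, 966 and 1260.4 CPM against 188 to 850.3, and Axl at 743, 614 and 804 CPM against 17.1 to 429. The N-cadherin gene Cdh2, with the largest called change of the list, was intermediate at 34.6, 55.1 and 43.1 CPM against 0 to 17.98, a log2 fold change of 4.19 ± 0.89 (SE, adjusted p = 0.00163). Tnc, the gene of the matrix protein tenascin C, did not pass. Sparc and Thy1 were the variable ones among the higher genes, and Tpm2 was the lower member. With the line as a random effect 6 of the 19 were higher, and 2 with counts summed per line. In the former fit Fn1, Lgals1 and Axl missed the threshold, with an adjusted p of 0.0701, 0.0906 and 0.0506, while Vim (0.0177), Msn (0.0224) and Itga5 (0.00107) kept their calls (limma-voom).

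By CPM, which is not scaled by gene length, the 10 most abundant constant genes among the higher ones were Fn1, Thbs1, Vim, Msn, Ep400, Ccnd1, Axl, Fth1, Polr2a and Calu, of which 5 kept their calls with the line as a random effect. Thbs1, which encodes the matrix protein thrombospondin 1, was at 1436, 1492 and 1923 CPM against 40.5 to 769.5. Ep400, the gene of a chromatin remodelling ATPase, was at 967, 694 and 1001 CPM against 154 to 277, a log2 fold change of 2.14 ± 0.13 (SE, adjusted p = 1.12e-10). Ccnd1, the gene of the cell cycle protein cyclin D1, lay within the Ba/Sq range of 142 to 887 CPM at 799, 733 and 729, and its adjusted p of 0.047 rose above 0.05 without any 1 of the 3 tumors. Fth1 (ferritin heavy chain), Polr2a (the largest subunit of RNA polymerase II) and Calu (a calcium-binding protein of the secretory pathway) had log2 fold changes of 1.0, 1.41 and 1.40.

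Rps6ka2, Arap3, Itgb7, Rorb and Nrxn3, chosen after their values were seen, were constant, and all 3 tumors were above the Ba/Sq range in each. Rps6ka2, a ribosomal S6 kinase gene, was at 157, 151.8 and 150.3 CPM against 1.85 to 20.2, a log2 fold change of 4.27 ± 0.34 (SE, adjusted p = 4.08e-09). Arap3, the gene of a GTPase-activating protein of the cytoskeleton, was at 270.0, 253 and 269.8 CPM against 1.43 to 21.9. Itgb7 encodes an integrin chain best known from lymphocytes and was at 105, 76.1 and 83.4 CPM against 1.15 to 12.5. In replicate 3, where Itgb7 was at 83.4 CPM, all 15 T cell markers together summed to 2.86 CPM and the mast cell markers to 29.5 CPM. Which cells made the Itgb7 RNA was not tested. The nuclear receptor gene Rorb was at 71.6, 90.4 and 88.0 CPM against 0 to 3.18, and the synaptic adhesion gene Nrxn3 at 170.2, 139.8 and 173 CPM against 0 to 25.5. Each of these 5 genes kept its call without any 1 BURP-16SR tumor and with the line as a random effect. Their choice after the values were seen made this likely, so that it gives no added support.

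**Figure D2:**
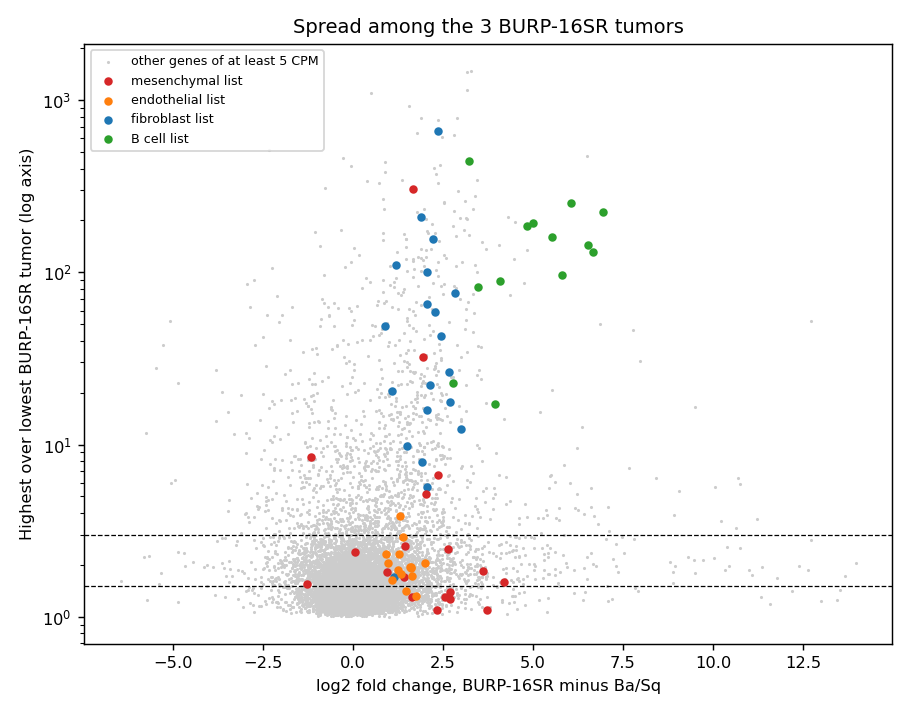
Log2 fold change of BURP-16SR over Ba/Sq against the ratio of the highest to the lowest BURP-16SR tumor (log axis), 1 point a gene with a mean of at least 5 CPM in BURP-16SR, with dashed lines at ratios of 1.5 and 3. Fibroblast (19 of 20) and B cell (13 of 13) genes lie above the upper line, and 14 of 15 endothelial genes lie below it. Of all genes shown 11.9% are variable, with a ratio of at least 3.

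Among 14 genes of FGF ligands and receptors 4 were higher (Fgf1, Fgf2, Fgf7 and Fgfrl1) and 2 lower (Fgfr2 and Fgfr3). Fgf2, the gene of basic fibroblast growth factor, was at 45.2, 40.05 and 80.8 CPM against 1.97, 5.48 and 24.1, a log2 fold change of 3.24 ± 0.39 (SE, adjusted p = 2.92e-06). Fgf7, which encodes keratinocyte growth factor, was at 19.9, 48.4 and 28.0 CPM against 0.0739, 0.408 and 10.2, a log2 fold change of 4.41 ± 0.83 (SE, adjusted p = 0.000503). Fgfr2, whose epithelial form is the receptor of FGF7, was at 0.339, 6.18 and 0.349 CPM against 23.8, 126 and 281, a log2 fold change of -5.71 ± 1.10 (SE, adjusted p = 0.000614). Fgfr3 was at 0.339, 1.16 and 0.419 CPM against 3.95 to 103. Both lost their calls with the line as a random effect (adjusted p = 0.0715 for Fgfr2 and 0.25 for Fgfr3, limma-voom) and with counts summed per line (0.0768 and 0.139, edgeR), and the former fit called 5 higher genes. For Fgf1, Fgf2, Fgf7, Fgfr2 and Fgfr3 all 3 tumors were outside the Ba/Sq range. Fgfr1, the receptor gene of many mesenchymal cells, was variable at 92.3, 148.7 and 30.3 CPM against 5.16 to 128 and did not pass.

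Of 36 genes of TGF-beta, BMP and activin signalling 7 were higher and 2 lower. A fit with the line as a random effect called 4 higher and none lower. Bmp2, a bone morphogenetic protein gene with the largest called change, was at 350.0, 214 and 501 CPM against 6.69, 10.4 and 115, a log2 fold change of 4.25 ± 0.55 (SE, adjusted p = 7.61e-06). Inhba, the gene of the activin A subunit, was at 448, 262 and 665 CPM against 14.5 to 261, and its adjusted p was 0.0588 without replicate 1 and 0.138 without replicate 3. The receptor gene Bmpr2 and the activin antagonist gene Fst did not pass, at -0.04 and 0.06 on the log2 scale. Of 14 PDGF and VEGF genes 3 were higher and none lower. Pdgfd, a platelet-derived growth factor gene, was above the Ba/Sq range at 13.5, 17.2 and 31.7 CPM against 0.0857 to 6.89, a log2 fold change of 3.90 ± 0.61 (SE, adjusted p = 6.55e-05). Vegfa did not pass, at 0.10.

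Of 40 Wnt pathway genes 12 were higher and 5 lower. These counts were 7 and 2 with the line as a random effect. Rspo2, the gene of a secreted enhancer of Wnt signalling, was at 3.47, 3.02 and 51.5 CPM against 0 to 0.107, and its fitted change, the largest of the list, is no bound, since every Ba/Sq tumor was at or under the floor. Its mean was at least 84.4-fold higher, a bound that rests on replicate 3 and does not hold for each tumor. Dkk2, the gene of a secreted modulator of the pathway, was at 46.7, 32.0 and 91.4 CPM against 0.0840 to 6.41. Wnt4, a ligand gene of epithelia, was lower, at 1.69, 2.24 and 1.05 CPM against 31.1, 88.5 and 206, as was the receptor gene Fzd6. The coreceptor genes Lrp5 and Lrp6 and the ligand gene Wnt5a did not pass, at 0.01, 0.02 and 0.69 on the log2 scale.

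Of 61 axon guidance genes 11 were higher and 16 lower, or 6 and 3 with the line as a random effect. Sema3a, the gene of a secreted semaphorin, was at 371, 289 and 656 CPM against 0.458, 2.63 and 165.4, a log2 fold change of 4.79 ± 1.07 (SE, adjusted p = 0.00244). The semaphorin receptor gene Plxnb1 was lower and constant, at 24.1, 27.1 and 23.7 CPM against 129.8 to 343, and Plxnb2 was lower at a log2 fold change of -1.05. Robo2, a Slit receptor gene, held the largest called change, at 0.169, 0.618 and 0 CPM against 2.53 to 91.0. Epha1, Epha4, Ephb3, Ephb4, Efna1 and Efnb1 of the Eph and ephrin families were also lower. Of 43 synaptic adhesion genes 8 were higher and 7 lower, or 5 and 0 with that fit. Cntnap5a, the gene of a neurexin-like protein, was at 37.6, 24.1 and 47.4 CPM with at most 0.106 CPM in Ba/Sq, at least 159-fold higher, and Slitrk1 was at 135, 92.2 and 153 CPM against 0 to 12.1. All 3 tumors were above the Ba/Sq range for both. Flrt2, an adhesion gene that binds FGF receptors and Unc5, was below the range at 18.8, 41.4 and 4.54 CPM against 42.5 to 459.

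Of 29 integrin genes 4 were higher (Itga5, Itga7, Itgb3 and Itgb7) and 4 lower (Itga3, Itga6, Itgb4 and Itgb6, which epithelia use), and with the line as a random effect 3 were higher and 2 lower. Itga6, the partner of Itgb4 in hemidesmosomes, was constant at 98.0, 116 and 143 CPM against 407 to 2535, a log2 fold change of -2.78 ± 0.54 (SE, adjusted p = 0.000592). Itgb1, the common beta chain, had an adjusted p of 0.0111 but a log2 fold change of 0.83, under the limit for a call. Of 23 cadherin genes 6 were higher and 3 lower, and Pcdh7 and Pcdh1 were not called. Of 184 developmental transcription factor genes 17 were higher and 29 lower, or 6 and 5 with the line as a random effect. Barx2, a homeobox gene of epithelial development, was at 0, 0.0773 and 0 CPM against 16.3 to 144, at least 343-fold lower, and Runx1 and Klf3 did not pass, at 0.18 and -0.66. Of 35 Hox genes none was higher and 3 were lower, among them Hoxa9, constant at 15.6, 13.5 and 18.8 CPM against 24.8 to 51.9. Over all genes tested 10.5% were higher and 8.62% lower.

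Fibroblast genes differed widely among the 3 tumors. Of 20 markers 7 were higher and none lower, with a median log2 fold change of 2.06, and 19 of the 20 were variable. They summed to 9327, 23689 and 954 CPM in replicates 1, 2 and 3, against 348 to 12762 in Ba/Sq with a median of 1498. Replicate 2 was thus above every Ba/Sq tumor, and replicate 3 below the Ba/Sq median. Col1a1, an alpha chain gene of type I collagen, was at 3633, 8833 and 334 CPM against 97.1, 413 and 3339.5, a log2 fold change of 2.67 ± 0.77 (SE, adjusted p = 0.0147). Col1a2 was at 1695, 4875 and 114 CPM against 52.6 to 2200.4, and Col3a1, of type III collagen, at 1889, 5738 and 97.5 CPM against 48.5 to 3829 with no call. Cxcl12, the gene of a chemokine made by fibroblasts, held the largest called change, at 74.6, 185 and 15.0 CPM against 1.34 to 88.4, a log2 fold change of 3.0 ± 0.86 (SE, adjusted p = 0.0139).

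Pdgfra, a receptor gene of fibroblasts, was at 71.4, 165.4 and 9.29 CPM against 0.750 to 79.0. Dcn, which encodes the matrix proteoglycan decorin, was at 79.1, 184 and 0.769 CPM against 0.167 to 233 with no call (log2 fold change 1.91 ± 1.22, SE). Without replicate 2 the adjusted p of Col1a1 was 0.277 and none of the 20 fibroblast genes was called. With the line as a random effect none of the 20 was called either.

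Of 39 collagen genes 15 were higher, 3 of them intermediate and 12 variable, and 3 were lower. Without replicate 2, 2 of the 39 were higher, without replicate 1, 7, and without the BURP-25BaSq tumors that stood apart, 8. Of the 39, 3 were higher with the line as a random effect (limma-voom), and none with counts summed per line (edgeR). By CPM the 10 most abundant variable genes among the higher ones were Col1a1, Col1a2, Sparc, Bgn, Col5a2, Col5a1, Col6a3, Scd1, Ereg and Col6a1, none of which kept its call with the line as a random effect. Bgn, the gene of the proteoglycan biglycan, was at 499, 1512 and 78.0 CPM against 13.2 to 681, and Col6a3 at 455, 875 and 110.4 CPM against 26.5 to 420.4. The intermediate members were Col4a1, Col4a2 and Col7a1. Col7a1, the gene of anchoring fibrils, was above the whole Ba/Sq range at 1353, 824 and 1105 CPM against 81.7, 212 and 725, and its adjusted p was 0.0224 with the line as a random effect (limma-voom). Scd1, a fatty acid desaturase gene, was at 580.0, 56.7 and 299 CPM against 29.0 to 592, and Ereg, the gene of the EGF receptor ligand epiregulin, at 288, 83.7 and 445 CPM against 2.37 to 251. Replicate 2, the highest for Col1a1, Col1a2 and Col6a3, was the lowest for both.

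Vessel genes differed less among the 3 tumors than fibroblast genes, but more than genes at large. The median ratio was 1.93 for endothelial genes, 34.5 for fibroblast genes and 1.49 over all genes of at least 5 CPM. Of 16 endothelial markers 9 were higher and none lower (median log2 fold change 1.44), and of the 15 above 5 CPM 2 were constant, 12 intermediate and 1 variable. They summed to 429, 675 and 577 CPM against 74.7 to 719. Vwf, the gene of von Willebrand factor, was at 79.0, 94.1 and 162 CPM against 7.80, 23.2 and 127, and Cdh5, of the endothelial cadherin, at 54.4, 104 and 84.7 CPM against 4.94, 22.6 and 101.5. Pecam1 was at 69.2, 84.8 and 60.4 CPM against 7.46 to 102.3, and the VEGF receptor gene Flt1 did not pass (46.4, 57.8 and 95.02 CPM against 12.4 to 119). Without replicates 1, 2 and 3 in turn 3, 1 and 2 of the 16 were called, and 4 without the BURP-25BaSq tumors that stood apart. None was called with the line as a random effect, where the adjusted p of Vwf, Cdh5 and Pecam1 was 0.0747, 0.257 and 0.297.

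Of 8 pericyte markers 5 were higher and 1 lower, and without replicate 2, 1 was higher and 2 were lower. None was called with the line as a random effect, where the adjusted p of Rgs5 was 0.377 (limma-voom). Rgs5, a regulator gene of G protein signalling in pericytes, was at 145, 162 and 35.2 CPM against 10.4 to 101, Ndufa4l2 was the lower member (7.62, 9.66 and 5.59 CPM against 11.3 to 184), and Notch3 did not pass. Of 11 smooth muscle markers 4 were higher, all of them variable, and none was called without replicate 2 or with the line as a random effect, where the adjusted p of Tagln was 0.501 and that of Myh11 0.472. Des, the gene of the intermediate filament protein desmin, was at 8.21, 28.7 and 6.71 CPM against 0 to 12.5, and Tagln at 34.9, 92.8 and 9.85 CPM against 3.31 to 37.7. Tpm1, Smtn and Acta2, the most abundant members by CPM, did not pass, with log2 fold changes of 0.72, 0.30 and 1.16.

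**Figure D3:**
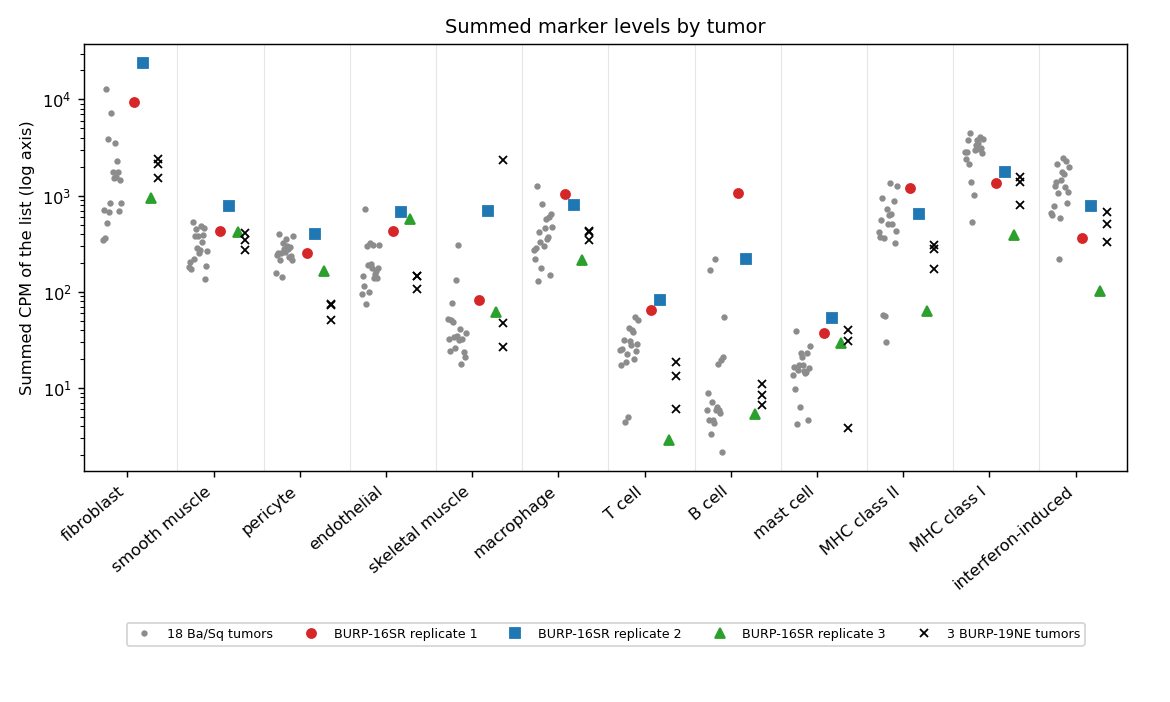
Summed CPM of marker lists in each tumor on a log axis, each symbol 1 tumor. Of the BURP-16SR and Ba/Sq tumors, replicate 2 of BURP-16SR is the highest for fibroblast, smooth muscle, pericyte, skeletal muscle, mast and T cell markers and replicate 1 for B cell markers, and replicate 3 is the lowest of the 3 BURP-16SR tumors in every list shown except endothelial.

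Skeletal muscle markers were high in 1 tumor, with sums of 82.5, 699 and 61.2 CPM against 17.8 to 308, and 4 of 15 were higher and 1 lower. Without replicate 2, and with the line as a random effect, 1 was higher. Ttn, the gene of the sarcomere protein titin, was at 53.5, 412 and 29.6 CPM against 6.36 to 208, and its adjusted p was 0.0145, or 0.763 without replicate 2. Neb (nebulin) was at 6.78, 65.5 and 1.89 CPM and Tnnc2 (fast troponin C) at 0, 7.27 and 0 CPM, against 0.686 to 28.2 and 0 to 1.55. Acta1, the actin gene of skeletal muscle, was at 0.0847, 45.0 and 0.629 CPM against 0 to 13.7 with no call, and its log2 fold change of 3.33 was -2.08 without replicate 2. Eno3, a muscle enolase gene, was instead constant and above the Ba/Sq range, at 21.003, 20.2 and 27.4 CPM against 1.73 to 13.8. Adipocyte (9), Schwann cell (8) and red cell (5) markers held no called gene (edgeR), with 1 gene of each at an unadjusted p under 0.05. DESeq2 called 1 adipocyte, 0 Schwann cell and 1 red cell marker.

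Of 13 B cell markers 12 were higher and all 13 were variable, with a median log2 fold change of 4.99. They summed to 1067, 218 and 5.38 CPM in replicates 1, 2 and 3 against 2.18 to 218 in Ba/Sq. Ighd, the heavy chain gene of IgD, held the largest change, at 70.7, 1.24 and 0.210 CPM against 0 to 1.38. Bank1, a B cell scaffold gene, was at 73.1, 3.48 and 0.349 CPM against 0 to 3.41, and Cd79a, a gene of the B cell receptor complex, at 70.5, 2.55 and 0.629 CPM against 0 to 2.03. Replicate 1 stood far above the rest for each. None of the 13 was called with the line as a random effect (limma-voom) or without replicate 1 (edgeR), where the adjusted p of Cd79a was 0.135 in place of 4.05e-06. Ighm, the heavy chain gene of IgM, was at 481, 196 and 0.978 CPM against 0.336 to 203 with no call (log2 fold change 3.23 ± 1.33, SE). Of 12 plasma cell markers none was higher, and Sdc1, which epithelium expresses too, was lower and constant at 186, 154 and 147 CPM against 343 to 2040.1.

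T cell markers summed to 64.5, 82.5 and 2.86 CPM against 4.45 to 54.9, so that replicates 1 and 2 were above all Ba/Sq tumors and replicate 3 below them. Of the 15 markers 1 was higher, the adhesion gene Cd2 (10.2, 5.95 and 0 CPM against 0 to 3.26). No T cell marker was called with the line as a random effect or without replicate 1 or 2, and 5 were higher without replicate 3. The coreceptor genes Cd4 (14.4, 9.59 and 0.210 CPM) and Cd8a (1.86, 5.88 and 0.0699 CPM) did not pass, and none of 9 cytotoxic and NK cell markers was called (edgeR, with 0 at an unadjusted p under 0.05 and 0 with DESeq2). Macrophage markers summed to 1029, 805 and 212 CPM against 129.6 to 1267, and 2 of 16 were higher, the lipopolysaccharide coreceptor gene Cd14 and the efferocytosis receptor gene Mertk. Cd14 was constant and above the Ba/Sq range at 36.3, 26.4 and 27.5 CPM against 5.23 to 18.8, as was Mertk at 19.7, 19.1 and 14.5 CPM against 3.02 to 14.1. Of the 16, 1 was higher with the line as a random effect (limma-voom) and none with counts summed per line (edgeR). Lyz2 and C1qa, among the most abundant members by CPM, did not pass. Csf1r, the receptor gene that defines macrophages, was at 110.4, 95.5 and 20.5 CPM against 3.43 to 131 with no call.

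Of 12 dendritic cell markers 4 were higher, or 2 without replicate 1 or replicate 2 and 1 with the line as a random effect. Ccl22, a chemokine gene of mature dendritic cells with the largest called change, was at 9.65, 22.5 and 0.908 CPM against 0.171 to 4.65, and Ccr7, the chemokine receptor gene of migrating dendritic cells, at 18.1, 14.1 and 1.19 CPM against 0 to 4.06. Replicates 1 and 2 were above the Ba/Sq range for both and replicate 3 was inside it. Zbtb46, a transcription factor gene of classical dendritic cells and endothelium, was constant and above the range at 18.8, 17.9 and 15.2 CPM against 1.18 to 11.6. Of 29 chemokine genes 6 were higher and none lower, and without replicate 2 none was higher and 2 were lower. In the fit with the line as a random effect 1 chemokine gene and 2 of 8 mast cell markers were higher. Cxcl13, the B cell attractant with the largest called change, was at 25.7, 14.5 and 0.0699 CPM against 0 to 10.7, while Cxcl9, Cxcl16 and Cxcl10 did not pass. Of 8 mast cell markers 5 were higher, with the tryptase gene Tpsb2 at 8.72, 6.65 and 3.84 CPM against 0.0530 to 2.68, and Kit did not pass. Of 9 neutrophil markers the gelatinase gene Mmp9 was higher (187, 46.2 and 126 CPM against 1.09 to 35.1) and Ltf, the gene of lactoferrin, which epithelia also secrete, was lower (0.423, 0.309 and 0.0699 CPM against 3.43 to 1209).

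Antigen presentation and interferon genes had their lowest sums in replicate 3. Class II genes summed to 1188, 652 and 62.8 CPM against 29.8 to 1339, and 2 of 9 were higher, H2-Oa and H2-Ob, which B cells express, and none without replicate 1 or with the line as a random effect. Cd74, the invariant chain gene, was at 529.9, 272 and 6.43 CPM against 6.69 to 565 and did not pass. Class I genes summed to 1365, 1771 and 392 CPM against 538 to 4521, with replicate 3 below all 18 Ba/Sq tumors. H2-K1 (307, 393 and 61.6 CPM against 61.2 to 1075) and B2m (223, 338 and 139.9 CPM against 17.9 to 1237) did not pass. Nlrc5, the gene of the class I transactivator, was lower at 52.5, 106 and 2.52 CPM against 69.7 to 319.9, a log2 fold change of -1.73 ± 0.61 (SE, adjusted p = 0.0426). It lost its call in 19 of 40 alternative settings, among them without replicate 1 (adjusted p = 0.137, edgeR), without replicate 3 (0.0695, edgeR) and with the line as a random effect (0.152, limma-voom). Of 20 interferon-induced genes 5 were lower and none higher, with sums of 362, 790.0 and 102.1 CPM against 219 to 2484. Ifit1 held the largest called change (4.32, 11.7 and 1.89 CPM against 4.46 to 106), and Isg15 was at 2.37, 7.81 and 1.19 CPM against 3.34 to 56.5. Without replicate 2 there were 8 lower genes, and without replicate 1 or replicate 3 there was 1. None was lower with the line as a random effect (adjusted p of Isg15 0.415, limma-voom) or with counts summed per line (edgeR).

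Another set of variable genes was highest in replicate 3, where most marker sums were lowest. Rspo2, given above, was at 51.5 CPM there. Nrcam, a neuronal adhesion gene, was at 4.23, 4.48 and 54.9 CPM, the transcription factor gene Pax3 at 3.47, 2.94 and 19.8 CPM and the ligand gene Wnt2 at 13.97, 12.1 and 73.8 CPM, against Ba/Sq ranges of 0 to 1.15, 0 to 1.29 and 0 to 8.12. Pet2, a gene on the X chromosome, was at 12.5, 2.24 and 123.03 CPM with no count in any Ba/Sq tumor. Its mean was at least 201-fold higher, a bound that rests on replicate 3 and does not hold for each tumor. Rspo2, Nrcam, Pax3, Wnt2 and Pet2 kept their calls without replicate 3. Nrcam, Pax3, Wnt2 and the BMP antagonist gene Grem1 were chosen after their values were seen. Grem1 was at 97.8, 57.4 and 310.3 CPM against 0.336 to 151, and without replicate 3 its adjusted p was 0.178. Of 17 imprinted and fetal growth genes 3 were higher and 2 lower. Dlk1, the gene of a Notch-related protein of fetal tissue, was at 21.8, 5.10 and 39.8 CPM against 0 to 3.60. Igf2 (0.678, 17.9 and 0.838 CPM against 4.04 to 948) and H19 (2.12, 115 and 1.47 CPM) did not pass, and Hmga2 was constant at 338, 349 and 450.3 CPM against 6.58 to 368 with no call.

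**Figure D4:**
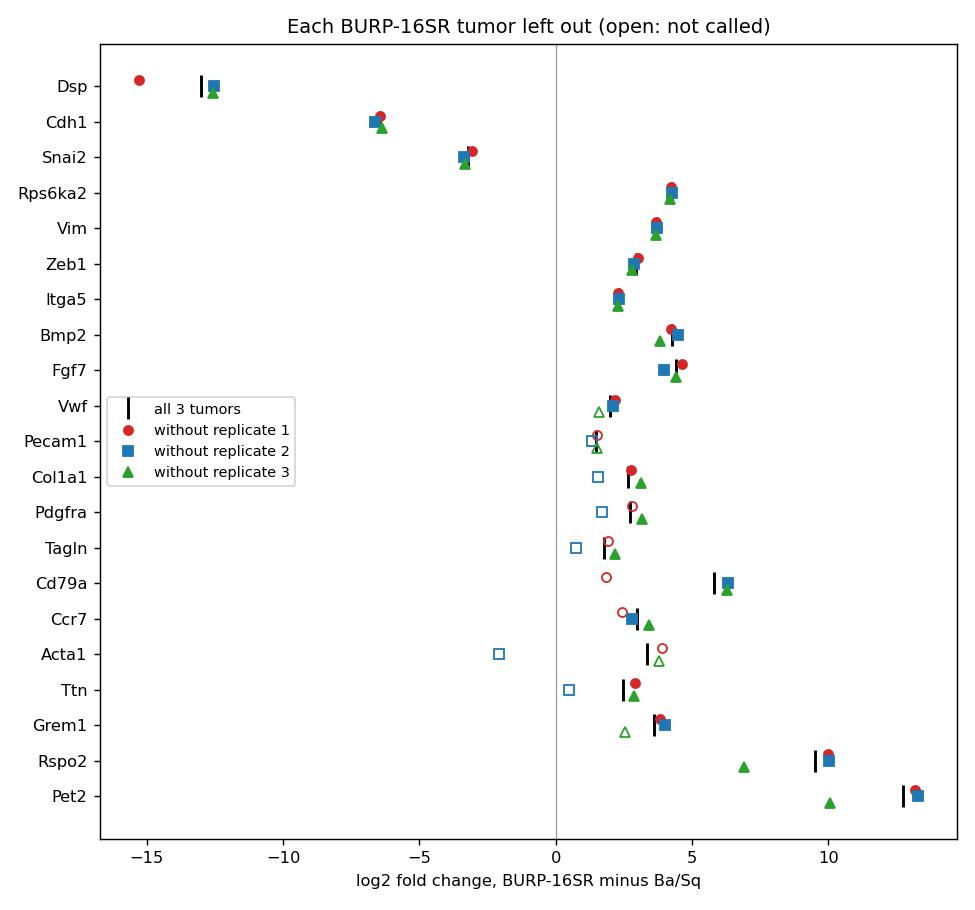
Log2 fold change of BURP-16SR over Ba/Sq for named genes with all 3 BURP-16SR tumors (bar) and without each one (symbols), where an open symbol marks a fit in which the gene was not called. Vim, Zeb1, Itga5, Cdh1 and Rps6ka2 keep their calls throughout, while Col1a1 loses its call without replicate 2 and Cd79a without replicate 1. Rps6ka2 was chosen after its values were seen.

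Of 20 cell division genes 9 were lower and 1 higher, with a median log2 fold change of -0.80. Mki67, the gene of the proliferation marker Ki-67, was at 176, 355 and 248 CPM against 334, 548 and 1420.0, a log2 fold change of -1.15 ± 0.35 (SE, adjusted p = 0.0179). Top2a did not pass (-0.88), and Cenpf was lower (-1.02). Without replicate 1 or without replicate 3, 1 of the 20 was lower, and none with the line as a random effect (adjusted p of Mki67 0.132, limma-voom) or with counts summed per line (edgeR). E2f1, a transcription factor gene of the entry into DNA synthesis, was the higher one, at 34.6, 36.6 and 53.2 CPM against 5.91 to 20.3, a log2 fold change of 1.66 ± 0.21 (SE, adjusted p = 6.69e-06). Of 26 growth control genes 3 were higher (Mdm2, Ccnd1 and Ccnd3) and 2 lower (Hras and Mycl), or 2 and 0 with the line as a random effect. The counts of 3 and 2 are near the shares over all genes tested, 10.5% higher and 8.62% lower. Mdm2, which encodes the ubiquitin ligase of p53, was above the Ba/Sq range at 98.9, 115 and 202 CPM against 44.8 to 88.4, and without replicate 3 its log2 fold change of 0.87 was under the limit for a call. Hras was constant and below the range, at 23.5, 23.97 and 25.1 CPM against 41.1 to 129. Trp53, Rb1, Cdkn2a, Egfr and Myc did not pass, with log2 fold changes between -0.79 and 0.09.

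Y-linked genes summed to 43.3, 58.4 and 9.36 CPM in replicates 1, 2 and 3, all 4 of them variable, with no call by edgeR or DESeq2 and 0 at an unadjusted p under 0.05. In the male Ba/Sq lines their sum ran from 1.54 to 185 CPM, and in the female lines it reached 0.116 CPM. Replicate 3, with the lowest fibroblast, T cell and B cell sums of the 3, also had the lowest Y-linked sum. Of 2 X inactivation genes Xist, the RNA of the inactive X chromosome, was lower than in Ba/Sq, at 0.508, 0.541 and 1.75 CPM against 0.274 to 3374. This call sets a male line against tumors of which 9 were female. Both X inactivation genes together summed to 0.412 to 565 CPM in the male Ba/Sq lines and to at most 3378 CPM in the female ones. Among the male lines BURP-12BaSq was at 565, 475 and 179 CPM, whereas BURP-17BaSq and BURP-18BaSq reached at most 30.8 CPM. Xist lost its call against the male lines only, without any 1 of the 3 BURP-16SR tumors (adjusted p = 0.0656 to 0.0884, edgeR) and with the line as a random effect (0.647, limma-voom). None of 13 mitochondrially encoded genes was called by edgeR or DESeq2, with 1 at an unadjusted p under 0.05, and they took 0.755% to 2.6% of the counts of the BURP-16SR tumors.

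Of the 10 largest increases 7 lay together on chromosome 5. Over runs of 50 neighbouring protein-coding genes the highest median log2 fold change, 0.79, was at chromosome 5 from 25271798 to 31193430 (GRCm38), with 22 genes higher and none lower. In that run 13 genes had a log2 fold change above 7 and belong to the Speer family or are unnamed gene models beside it. Gm21698 was at 103, 95.7 and 138 CPM with at most 0.0445 CPM in Ba/Sq, at least 489.6-fold higher, and Gm21680 at 68.3, 69.3 and 85.7 CPM with no count in Ba/Sq, at least 325-fold higher. Speer4a was at 50.2, 45.9 and 85.9 CPM against 0 to 0.0534. These genes are near copies of each other among which RSEM divides reads, so that the value of any 1 of them is uncertain. In BURP-19NE the highest tumor had 3.63 CPM of Speer4a and 0.499 CPM of Gm21698.

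The other 9 higher genes of the run were Il6, Garem2, Kcnk3, Emilin1, Khk, Cgref1, Preb, Slc5a6 and Mpv17. They, and Kmt2c as the first gene of the run, were named after their values were seen. Kmt2c was not called, at 219, 169 and 180.1 CPM against 122 to 276 and a log2 fold change of -0.14 ± 0.19 (SE). Runs of 25 genes placed the highest median, 7.38, over the same cluster. Of those 10 increases Gm21698, Gm21680, Gm21671, Speer4a, Gm7347, Gm1979 and Gm21663 came from this cluster, and Pet2 is given above. Naa11, an acetyltransferase gene, was at 45.1, 43.0 and 51.0 CPM against 0 to 0.107 in Ba/Sq and 23.9 to 27.4 in BURP-19NE. 1700012B09Rik was at 41.4, 24.8 and 69.3 CPM with no count in any Ba/Sq tumor, at least 197-fold higher.

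**Figure D5:**
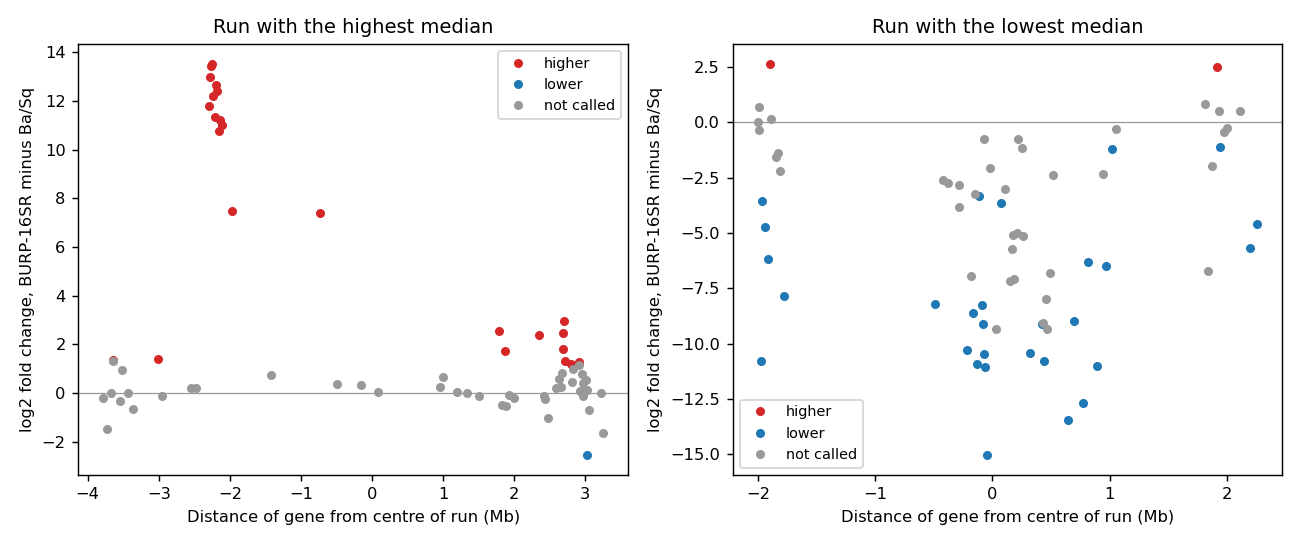
Log2 fold change of BURP-16SR over Ba/Sq for neighbouring protein-coding genes along the runs of 50 genes with the highest (left) and lowest (right) median, by distance from the centre of the run in megabases, with 10 neighbours on each side. On the left 13 genes of the run stand above 7, and on the right 22 genes of the run are lower and none is higher.

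The lowest median, -6.66, was at chromosome 3 from 90668978 to 94332540, the epidermal differentiation complex of genes for cornified epithelium, with 22 of 50 genes lower and none higher. Sprr3 and Crnn had no count in any BURP-16SR tumor, against Ba/Sq medians of 107 and 48.1 CPM (ranges 2.14 to 834 and 7.82 to 247). Set against their Ba/Sq means of 233 and 76.2 CPM, they were at least 1003-fold and 329-fold lower. These bounds do not hold for each Ba/Sq tumor. Neither gene kept its call with the line as a random effect (adjusted p = 0.651 and 0.305, limma-voom). By chromosome, the share of protein-coding genes that were higher ran from 5.19% (chromosome 12) to 15.8% (X), and the share that were lower from 5.66% (chromosome 17) to 13.8% (chromosome 13), leaving out the 5 genes of the Y chromosome.

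Against the 3 BURP-19NE tumors 2592 of 17556 genes were higher in BURP-16SR (14.8%) and 1555 lower (8.86%). This comparison uses the same 3 BURP-16SR tumors. Cdh1 (0.547 to 1.996 CPM), Dsp (1.26 to 2.69 CPM) and Jup (7.21 to 17.9 CPM) were low in BURP-19NE too, and of these Cdh1 was higher in BURP-16SR (log2 fold change 2.07, adjusted p = 0.0226, edgeR). Zeb1 (117 to 132 CPM), Axl (586 to 822 CPM) and Rorb (47.8 to 68.1 CPM) differed from BURP-19NE by -0.18, 0.07 and 0.61 on the log2 scale with no call. Nrxn3 had no count in BURP-19NE, Cdh2 was at most 0.635 CPM, Itgb7 at most 2.36 CPM and Bmp2 at most 1.01 CPM, and all 4 were higher in BURP-16SR. Krt8 was at most 0.272 CPM in BURP-19NE and higher in BURP-16SR (adjusted p = 0.000839, edgeR), whereas Krt7 was lower (log2 fold change -1.71). Of 16 endothelial genes 15 were higher than in BURP-19NE. Of 11 neuroendocrine markers 4 were higher than in Ba/Sq (Eno2, Scg2, Snap25 and Uchl1), with sums of 65.6, 127 and 103 CPM against 17.4 to 133 in Ba/Sq and 259.9 to 367 in BURP-19NE, and Ncam1 did not pass. The median log2 fold change of the 11 against Ba/Sq was 0.81, and without replicate 2 that of the list was -0.35. Of 9 neuroendocrine markers tested against BURP-19NE 5 were higher in BURP-16SR and 2 lower, with a median of 2.49, although the sums lay the other way.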

How the data were processed

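Total RNA of 24 tumors was sequenced after depletion of ribosomal RNA. Per the labels and the study's methods, the authors called bases with CASAVA 1.8.2, aligned reads to GRCm38 with STAR 2.6.0a, and deposited estimated counts per gene (expected counts of RSEM 1.3.1) with no normalization. Whether the counting used strand is not given in the sources used here, so that overlapping and antisense genes cannot be told apart, and RSEM divides reads among near copies. The estimated counts as deposited were rounded to integers before testing, which altered 12.5% of them. Gene names and positions came from a GENCODE annotation of GRCm38 that held 99.8% of the 53465 identifiers.

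Tumors were grouped by line as labelled. Replicate numbers follow accession order and pair no tumors. Analyses ran in R 4.3.3 with edgeR 4.0.16 (filterByExpr, TMM, glmQLFit and glmQLFTest without robust estimation), limma 3.58.1 and DESeq2 1.42.0. A call needed a Benjamini-Hochberg adjusted p below 0.05 together with a log2 fold change beyond 1 in either direction. The floor was 3 counts per library, and the spread used a prior count of 2. A bound on a fold set the mean of the higher group against the mean floor of the other group. It is thus a bound on the group mean and need not hold for each tumor. The fits were tested on simulated data with 200 genes changed 4-fold. For BURP-16SR against Ba/Sq edgeR recovered 87.5% of them with 5.91% of its calls false, and DESeq2 93.5% with 20.1% false. Against BURP-19NE edgeR recovered 41.5% and DESeq2 62%. Simulated tumors were independent, whereas the consensus correlation within a line was 0.459 in the data (limma). The simulation thus does not measure errors that come from several tumors of 1 line. Promoters came from RefSeq (GRCm38.p6).

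The comparison, the 33 gene lists, the 12 gene families and the limits of spread were chosen with earlier results of these data known, and support nothing beyond the counts given. Named were members of a list where it is described, led by the 3 with the highest mean CPM over the 21 tumors and the one with the largest called change, the 10 protein-coding genes with the largest called change in each direction without overlap and with at least 5 CPM in the higher group, the 10 most abundant constant and 10 most abundant variable higher genes, and the 2 genes with the largest change in the highest and in the lowest run. Some genes that this rule names are not reported here. Alternatives were DESeq2, the line as a random effect, counts summed per line, other size factors and filters, removal of ribosomal RNA genes, all 24 tumors in 1 fit, male lines only, and each line and each tumor left out.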

Additional observations from a re-analysis of the deposited data

How the results depend on the processing

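No paired analysis was possible because the replicate numbers follow accession order and mark no shared animal or day. With the line as a random effect (limma-voom) 1230 genes were higher and 267 lower, and the list medians (log2 fold change) were -9.38 for basal and squamous genes, -5.62 for epithelial regulators, 3.11 for mast cell and -5.03 for X inactivation genes. With counts summed per line 525 were higher and 316 lower. DESeq2 called 2143 and 2358, and all 24 tumors in 1 fit 3323 and 2437, with a median of -5.07 for X inactivation genes. A minimum of 10 counts per tumor, which removes genes near 0 in BURP-16SR, gave 817 higher and 777 lower genes, and the medians were -5.02 for basal and squamous, -1.12 for luminal, -2.89 for junction and -3.51 for regulator genes, 0.87 for mast cell and -0.65 for neuroendocrine genes, the last against 0.81. With a mean of at least 1 CPM the luminal, mast cell and neuroendocrine medians were -2.21, 0.88 and 2.44. The luminal median was -2.34 without a filter and with counts summed per line, and -1.58 without BURP-25BaSq. Against male lines only 1385 genes were higher and the X inactivation median was -5.75, and without BURP-17BaSq the median of the 13 regulators of the mesenchymal state was 1.42.

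With 1 tumor left out the higher genes ranged from 1625 to 2484 and the lower from 1045 (without BURP-16SR replicate 1) to 2154. Medians ranged from -10.79 to -10.04 for basal and squamous, -2.79 to -1.84 for luminal, -6.09 to -5.56 for junction, -6.96 to -5.72 for regulator and -8.23 to -6.50 for X inactivation genes, and Acta1 from -2.08 to 4.23. Medians ranged more widely for B cell (1.59 to 5.74), fibroblast (1.02 to 2.88), collagen (0.21 to 1.67) and neuroendocrine genes (-0.35 to 1.87), and without BURP-16SR replicate 2 the skeletal muscle median of 2.90 was -2.83. With the ratio taken over 2 BURP-16SR tumors, a ratio that cannot exceed that over 3, the constant higher genes ranged from 628 to 975, the intermediate from 453 to 606 and the variable from 139 to 333. Limits of 2 and 4 gave 861 constant and 410 intermediate genes, a minimum of 1 CPM gave 627 variable genes, and a minimum of 20 CPM gave 470 intermediate and 162 variable genes. Runs of 25 genes had a highest median of 7.38, and runs of 100 a lowest of -2.28. Other shifts were not traced, and the cause was not tested. The fits without both BURP-25BaSq tumors were chosen after seeing the data. The promoter shares had no alternative window. Depth limits genes at or under 3 counts, 492 of the lower genes in every BURP-16SR tumor and 73 of the higher genes in every Ba/Sq tumor, to bounds.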
